A study of Mus musculus and Homo sapiens with 81 samples.

Results

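HT29 cells, an established human colon adenocarcinoma line, were compared after interferon gamma (IFNg) and after vehicle. These cells expressed Cas9 and had received a lentivirus with a non-targeting guide RNA named Bro4, so they are the control genotype of a study of Ptpn2 deletion. The comparison was defined by its samples: 2 libraries of control cells given IFNg at 100 ng/mL and 2 libraries of control cells given PBS with BSA, all collected at 48 hours, which makes 4 of the 81 samples of the series. RNA was measured as read counts per gene from directional, paired-end sequencing of polyadenylated RNA. For comparison, the same treatment was read in 4 libraries of HT29 cells that carried Cas9 and a guide against Ptpn2 (called Ptpn2-null in the labels), in 4 libraries of control A549 lung carcinoma cells and in 6 libraries of control MelJuSo melanoma cells. All of these cells went through infection with a guide-bearing lentivirus, and each genotype rests on a single guide. The labels do not say that replicates came from separate cultures, and the p-values therefore cover only library-to-library spread, which may be technical.

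IFNg is a cytokine made mainly by T cells and NK cells. It binds the receptor chains IFNGR1 and IFNGR2, whose kinases JAK1 and JAK2 pass the signal on to the nucleus. It then drives genes such as IRF1, which encodes a transcription factor that drives a further set of genes. In gut epithelium the cytokine is known for raising antigen presentation and for acting on barrier and growth genes. SOCS1, SOCS3 and the phosphatase PTPN2 are known brakes on this pathway.

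The 4 control libraries held 6848609 to 7633477 counts each, and at least 99.91% of them fell in the 12555 of 23227 genes that were tested. Both pairs of replicates differed a little more than counting alone gives, with a chi-square per degree of freedom of 1.34 in IFNg cells and 1.32 in vehicle cells. In the comparison groups it reached 2.09 in Ptpn2-null HT29 cells with IFNg and 1.74 to 1.79 in control MelJuSo cells with IFNg. In the labels of control HT29 IFNg replicate 1 the cell type reads lung although the cell line reads HT29. Across genes its log2 levels correlated at 0.968 to 0.998 with the other HT29 libraries and at 0.855 to 0.870 with the A549 libraries, where genes are not independent replicates. The summed level of 12 colon epithelial markers was 1080 to 1120 counts per 1e6 counts of the library (CPM) in IFNg cells and 662 to 675 CPM in vehicle cells, against 91.4 to 93.5 CPM in control A549 cells. Of the 9 colon markers tested, CEACAM5, MUC13 and KRT20 rose with IFNg and 6 fell (median log2 change -0.42). The higher sum in IFNg cells is thus not shared by most of these markers. Among the 12, CDX1, GPA33 and FABP1 did not pass the filter on low counts. CDX2 held 0.145 and 0 CPM in IFNg cells and 1.46 and 0.606 CPM in vehicle cells, so this colon label is only partly borne out by defining markers. The summed level of 12 lung and A549 markers was 8.65 to 9.18 CPM in IFNg cells and 6 to 7.01 CPM in vehicle cells, with SFTPC, SFTPD, NKX2-1, SCGB1A1, SCGB3A2 and ROS1 at 0. The summed level of 15 leukocyte markers was 23.3 to 24.4 CPM in IFNg cells and 19.2 to 20.4 CPM in vehicle cells, most of it CD14, and PTPRC and CD3E failed the filter. The sums were 2.62 to 2.93 CPM in IFNg cells and 1.02 to 1.73 CPM in vehicle cells for 10 fibroblast markers, 12.4 to 14.8 CPM in IFNg cells and 14.3 to 16.6 CPM in vehicle cells for 8 endothelial markers, and 1.33 to 3.28 CPM in IFNg cells and 2.63 to 2.67 CPM in vehicle cells for 8 melanocyte markers. The part of these marker sums in the results below was not tested.

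IFNg moved a large share of the transcriptome in control HT29 cells. By edgeR's quasi-likelihood test with a Benjamini-Hochberg adjusted p under 0.05, which is what "called" means throughout, 7461 genes were called (59.4% of those tested), 3861 higher (30.8%) and 3600 lower (28.7%). At 2-fold or more, 1243 genes were higher (9.9%) and 739 were lower (5.89%). The upward side reached further. At 8-fold or more there were 383 genes higher and 56 lower, and at 32-fold or more there were 188 higher and 8 lower. These size counts rest on fitted changes. For 92 tested genes with 0 counts in 1 group, the fitted change can exceed the lower bound that the counts allow. Some genes in these counts are therefore not shown to reach the stated fold. The 1243 genes that were at least 2-fold higher held 19.8% and 19.9% of all counts in IFNg libraries, against 4.09% and 4.14% in vehicle libraries. The 188 genes that were at least 32-fold higher held 5.93% and 5.96% of counts in IFNg libraries and 0.0497% and 0.0551% in vehicle libraries.

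Levels are given below as normalized CPM (scaled by TMM), in the order replicate 1, replicate 2. Log2 fold changes are IFNg over vehicle, and the error after ± is the larger of the fit's standard error and the counting error. Where a group had 0 counts in both libraries, the fold is a lower bound against 3 counts over that group. Where a group had 1 to 3 counts, the ratio is given with its 95% exact counting interval, which covers counting error only. Levels are not compared between genes, since gene lengths were not used here. Counts of genes that rose or fell in a group stand beside 30.8% higher and 28.7% lower over all tested genes.

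The genes that carry the IFNg signal rose themselves. Of 13 tested genes of the receptor and JAK-STAT group, 11 rose, 1 fell and 1 was not called, with a median log2 change of 1.18 against -0.01 over all tested genes. JAK2, the kinase bound to IFNGR2, held 228 and 222 CPM in IFNg cells and 7.96 and 8.6 CPM in vehicle cells (4.76 ± 0.13). STAT2, a transcription factor of type I interferon signalling, held 568 and 562 CPM in IFNg cells and 28 and 25.3 CPM in vehicle cells (4.41 ± 0.07). In both genes the IFNg libraries stood far above the vehicle libraries and the replicates lay close together. The ligand-binding chain IFNGR1 held 242 and 242 CPM in IFNg cells and 83.7 and 84.5 CPM in vehicle cells (1.52 ± 0.05). The other chain, IFNGR2, was called higher by only 0.27. That call was lost with DESeq2, without IFNg replicate 2 (0.25) and without vehicle replicate 1 (0.16). STAT5B was the member that fell, at 14.5 and 11.8 CPM in IFNg cells and 19.4 and 16.1 CPM in vehicle cells (-0.43, adjusted p = 0.013) in edgeR. Its call was lost with DESeq2, without IFNg replicate 2 (-0.28) and without vehicle replicate 1 (-0.29). The interferon receptor chain IFNAR1 missed the threshold (0.14, adjusted p = 0.092) but passed it without IFNg replicate 2 (0.22).

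Interferon regulatory factors are the transcription factors that relay the response. Of 8 tested members, 7 rose and none fell, with a median of 2.29. IRF1 held 865 and 844 CPM in IFNg cells and 23.2 and 26.3 CPM in vehicle cells (5.10 ± 0.07). IRF9, the DNA-binding partner of STAT2, held 101 and 117 CPM in IFNg cells and 17.8 and 18.9 CPM in vehicle cells (2.57 ± 0.09). IRF7, which sustains production of type I interferons, rose by 3.18 ± 0.07, and IRF2 by 2.02 ± 0.10. IRF5 did not pass the test, at 8.41 and 7.98 CPM in IFNg cells and 8.62 and 6.79 CPM in vehicle cells (0.10, adjusted p = 0.69), and here the groups overlapped.

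Among 18 feedback inhibitors of cytokine signalling, 10 rose, 4 fell and 4 were not called, with a median of 0.55. Over all tested genes 30.8% rose and 28.7% fell. SOCS1, which blocks JAK kinases, held 61.5 and 64.4 CPM in IFNg cells and 0.398 and 0 CPM in vehicle cells, a ratio of 331 (113 to 1610). SOCS3 held 25.1 and 20.4 CPM in IFNg cells and 0.53 and 0.485 CPM in vehicle cells (5.44 ± 0.52). USP18, which removes ISG15 from proteins and restrains the type I receptor, held 46.3 and 40.2 CPM in IFNg cells and 0.796 and 0.969 CPM in vehicle cells (5.58 ± 0.39). All of these inducible brakes were near the detection floor without the cytokine. PTPN2, the phosphatase that the series set out to delete, held 39.7 and 40.2 CPM in IFNg cells and 27.8 and 28.8 CPM in vehicle cells (0.49 ± 0.10, adjusted p = 2.1e-05). The members that fell were PIAS3 (-0.67), PTPN11 (-0.47), SOCS7 (-0.39) and PTPN1 (-0.27), inhibitors or phosphatases of cytokine signalling, and each changed by less than 2-fold.

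**Figure D1:**
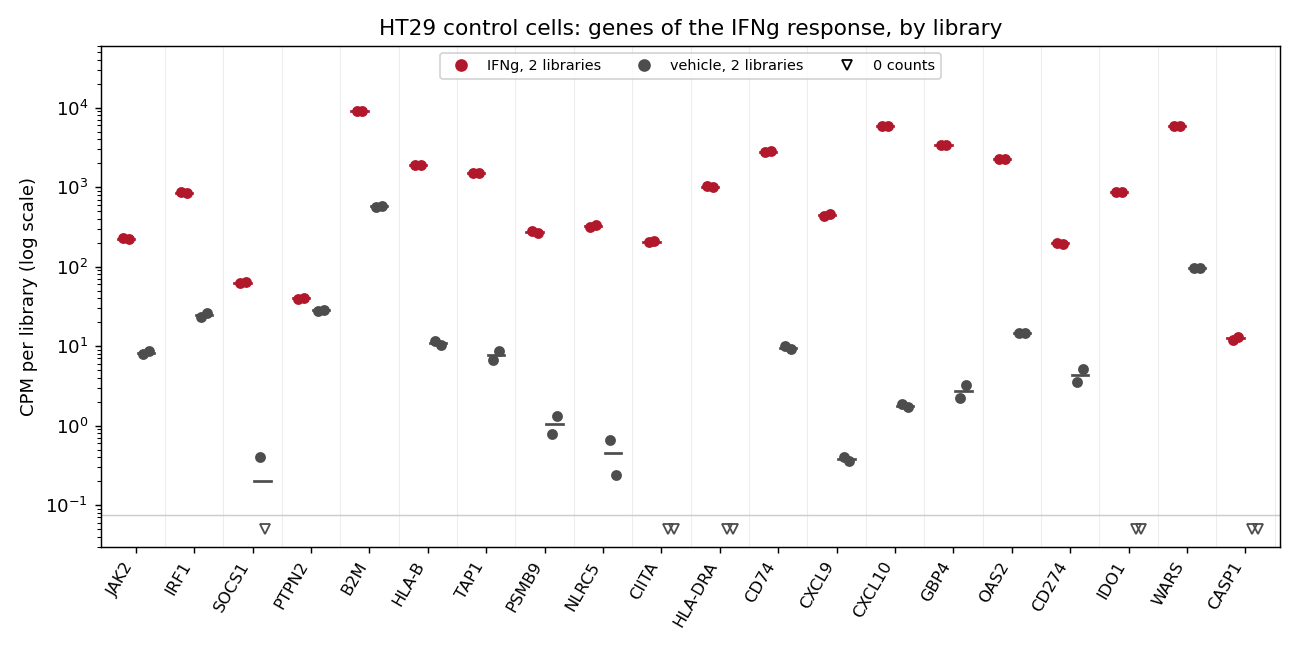
Normalized CPM on a log axis for leading interferon genes, with 1 point for each of the 2 IFNg libraries and the 2 vehicle libraries of control HT29 cells, a bar at each mean and open triangles for libraries with 0 counts. The groups do not overlap in any gene shown, and IRF1, for example, lies at 865 and 844 CPM with IFNg and at 23.2 and 26.3 CPM with vehicle.

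The MHC class I pathway rose at every step measured. All 11 class I chains and regulators were higher (median 3.83), 10 of them by 2-fold or more, as were all 9 genes of peptide loading and trimming (median 2.56) and all 5 of the immunoproteasome and its activator (median 3.01). The smallest class I change, that of the NK ligand MICA (0.42), was not called with DESeq2 (adjusted p = 0.059) or without IFNg replicate 2 (0.30, adjusted p = 0.13 in edgeR). B2M, the light chain shared by all class I molecules, held 9210 and 9120 CPM in IFNg cells and 571 and 575 CPM in vehicle cells (4.0 ± 0.04). HLA-B held 1910 and 1930 CPM in IFNg cells against 11.5 and 10.3 CPM in vehicle cells (7.46 ± 0.11). Reads of the classical HLA genes and of the pseudogene HLA-H can be split among near-identical copies, so their separate values are uncertain. NLRC5, the transactivator of class I genes, held 317 and 334 CPM in IFNg cells and 0.663 and 0.242 CPM in vehicle cells (9.47 ± 0.55). TAP1, which with TAP2 pumps peptides into the endoplasmic reticulum, held 1530 and 1510 CPM in IFNg cells and 6.76 and 8.72 CPM in vehicle cells (7.60 ± 0.13).

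In the proteasome the inducible subunits rose further than the standing ones. PSMB9 held 280 and 266 CPM in IFNg cells and 0.796 and 1.33 CPM in vehicle cells (7.96 ± 0.35). PSMB8 held 225 and 221 CPM in IFNg cells and 9.68 and 11.1 CPM in vehicle cells (4.42 ± 0.12), and PSMB10 rose by 3.01 ± 0.08. These are the catalytic subunits that replace PSMB6, PSMB5 and PSMB7 in the immunoproteasome, and those standing subunits were also higher, by 0.38 for PSMB6, 0.25 for PSMB5 (not called without vehicle replicate 1, at 0.19) and 0.85 for PSMB7. All 14 subunits of the constitutive core were called higher, but only 3 by 2-fold or more, with a median of 0.78 and the highest value at PSMA4 (1.30 ± 0.04).

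MHC class II genes were switched on from almost nothing. Of 20 listed genes 17 were tested, all 17 were at least 2-fold higher, and 11 of them had 0 counts in both vehicle libraries. CIITA, the master transactivator of class II, held 206 and 208 CPM in IFNg cells and 0 and 0 CPM in vehicle cells, at least 1090-fold higher. HLA-DRA held 1040 and 994 CPM in IFNg cells and 0 and 0 CPM in vehicle cells, at least 5350-fold higher, and HLA-DPA1 was at least 1770-fold higher. CD74, the invariant chain, was present without the cytokine, with 2750 and 2840 CPM in IFNg cells and 9.95 and 9.09 CPM in vehicle cells (8.20 ± 0.12). HLA-DRB1 (at least 183-fold higher) and HLA-DRB5 (at least 210-fold higher) share sequence with other DRB genes, and their separate values are uncertain. With genes at 0 set to their bounds, the median log2 change of this group was 6.67.

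**Figure D2:**
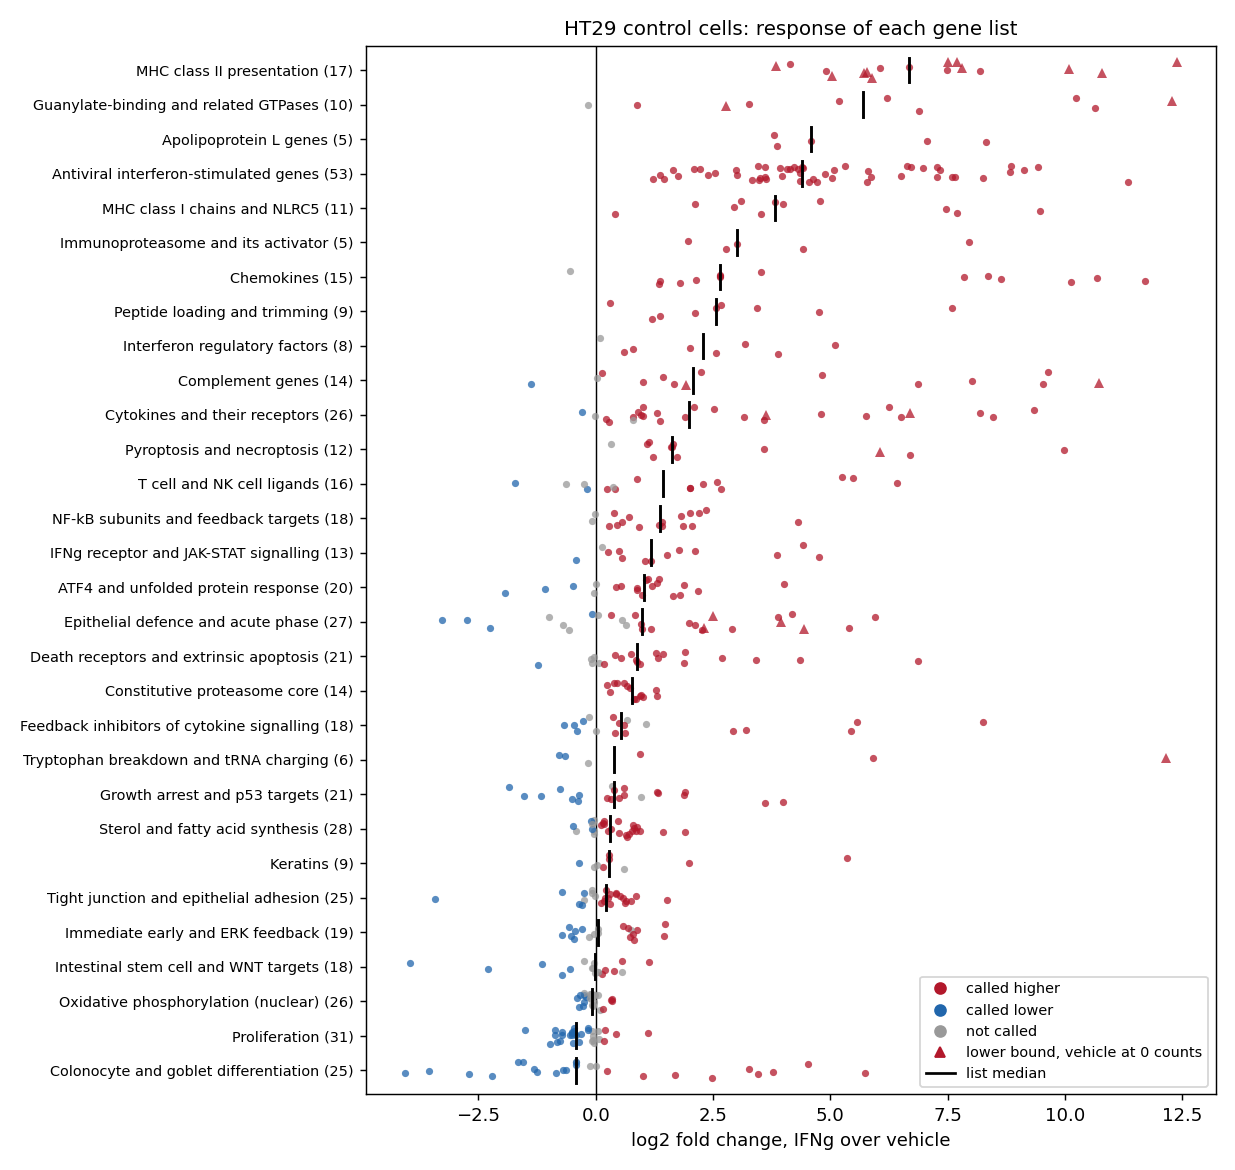
Log2 fold change of IFNg over vehicle in control HT29 cells for members of each gene group, with 1 point per gene, triangles for genes drawn at their lower bound because a group had 0 counts, and a bar at the median of the plotted genes. Genes at or below the floor in both groups are left out, and antigen presentation, GBP and antiviral genes lie to the right, with the antiviral median at 4.40, while proliferation genes lie left of 0, with a median of -0.42.

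Chemokines for T cells were among the strongest responses. Of 27 listed chemokines 17 were tested, and 14 rose, each by 2-fold or more. The CXCR3 ligand CXCL10 held 5890 and 5980 CPM in IFNg cells and 1.86 and 1.7 CPM in vehicle cells (11.70 ± 0.27, adjusted p = 4.8e-72). CXCL11 held 2490 and 2370 CPM in IFNg cells and 1.59 and 1.33 CPM in vehicle cells (10.69 ± 0.30), and CXCL9 held 438 and 456 CPM in IFNg cells and 0.398 and 0.364 CPM in vehicle cells (10.14 ± 0.59). All 3 ligands of that receptor thus stood near the detection floor in vehicle cells and high in both IFNg libraries. CCL5, which draws T cells, rose by 8.64 ± 0.59 and the membrane-bound CX3CL1 by 8.37 ± 0.59. The monocyte chemokines CCL2 and CCL8 had 0 counts in all 4 libraries, which allows up to 0.216 CPM in IFNg cells and 0.19 CPM in vehicle cells. The neutrophil chemokine CXCL6 was not called (-0.54, adjusted p = 0.2).

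Of 36 listed cytokines and receptors 26 were tested, with 23 higher and 1 lower (median 1.99). IFNB1, the type I interferon beta, held 20.2 and 19.7 CPM in IFNg cells and 0 and 0 CPM in vehicle cells, at least 105-fold higher. IL29, the type III interferon lambda 1, held 92.8 and 96.6 CPM in IFNg cells and 0.265 and 0.242 CPM in vehicle cells (8.46 ± 0.72). Both antiviral interferons were thus detected in each library given IFNg. TNFSF13B, the B cell factor BAFF, held 187 and 195 CPM in IFNg cells and 0.663 and 0.606 CPM in vehicle cells (8.20 ± 0.46). CSF1, the macrophage growth factor, rose by 5.77 ± 0.38, and IL32 had a ratio of 732 (202 to 6050). IL13RA1, a receptor chain for IL-4 and IL-13, was the member that fell (-0.30).

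The guanylate-binding proteins, GTPases that attack intracellular pathogens, and the related MX genes showed 9 of 10 tested members higher. GBP1 held 2110 and 2010 CPM in IFNg cells and 1.06 and 1.45 CPM in vehicle cells (10.65 ± 0.32). GBP4 held 3370 and 3380 CPM in IFNg cells and 2.25 and 3.27 CPM in vehicle cells (10.24 ± 0.22), and GBP5, with 955 and 954 CPM in IFNg cells, had 0 counts in both vehicle libraries and was at least 5020-fold higher. The GBP genes are close paralogs with a neighbouring pseudogene, GBP1P1, so reads may be split among them. IRGQ was not called (-0.17, adjusted p = 0.11).

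Every one of the 53 antiviral interferon-stimulated genes was at least 2-fold higher, with a median log2 change of 4.40. This group is shared with type I interferons, and it includes sensors, RNA-degrading enzymes and blockers of viral entry. OAS2, a synthetase of the 2-5A messenger that activates RNase L, held 2290 and 2280 CPM in IFNg cells and 14.6 and 14.8 CPM in vehicle cells (7.28 ± 0.10). RSAD2, the viperin enzyme, held 1240 and 1240 CPM in IFNg cells and 2.65 and 2.79 CPM in vehicle cells (8.83 ± 0.22). TRIM22, a ubiquitin ligase, held 1050 and 1010 CPM in IFNg cells and 0.265 and 0.485 CPM in vehicle cells (11.34 ± 0.59). In these genes both vehicle libraries were low and both IFNg libraries high. OAS3 and ISG15 had a vehicle level well above the floor. OAS3 held 3430 and 3510 CPM in IFNg cells and 187 and 208 CPM in vehicle cells (4.14 ± 0.04). ISG15, a ubiquitin-like modifier, held 1640 and 1670 CPM in IFNg cells and 55.4 and 55.9 CPM in vehicle cells (4.89 ± 0.05). All 5 tested apolipoprotein L genes rose (median 4.58), among them APOL6 at 838 and 835 CPM in IFNg cells and 63.1 and 56.2 CPM in vehicle cells (3.81 ± 0.05). UBD, the ubiquitin-like protein FAT10, held 821 and 835 CPM in IFNg cells and 0 and 0.121 CPM in vehicle cells, a ratio of 13100 (2350 to 517000).

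Ligands that T cells and NK cells read were raised in part. Of 16 tested, 11 rose, 2 fell and 3 were not called (median 1.44). CD274, which encodes PD-L1, held 198 and 194 CPM in IFNg cells and 3.58 and 5.09 CPM in vehicle cells (5.48 ± 0.18). ICAM1, the adhesion ligand of LFA-1, held 521 and 542 CPM in IFNg cells and 5.7 and 6.54 CPM in vehicle cells (6.43 ± 0.15). CD47, the signal that restrains phagocytes, rose by 2.58 ± 0.06 and CEACAM1, an inhibitory adhesion molecule, by 2.0 ± 0.04. Against these, LGALS1, which encodes galectin-1, held 2.9 and 3.13 CPM in IFNg cells and 9.02 and 10.9 CPM in vehicle cells (-1.72 ± 0.25), and CD276, a B7 family member, was called lower (-0.18, adjusted p = 0.026). That call was lost with DESeq2 and without IFNg replicate 1 (-0.16), IFNg replicate 2 (-0.20) or vehicle replicate 2 (-0.15). IDO1, which degrades tryptophan, held 879 and 865 CPM in IFNg cells and 0 and 0 CPM in vehicle cells, at least 4590-fold higher. WARS, the tRNA synthetase for the same amino acid, held 5830 and 5820 CPM in IFNg cells and 96.7 and 96.5 CPM in vehicle cells (5.91 ± 0.04), whereas its mitochondrial counterpart WARS2 was not called (-0.17, adjusted p = 0.19).

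Genes of the extrinsic death pathway rose on both its killing and its protective side. Of 21 tested, 16 rose and 1 fell (median 0.88). TNFSF10, the death ligand TRAIL, held 1370 and 1400 CPM in IFNg cells and 11.7 and 11.9 CPM in vehicle cells (6.87 ± 0.11). FAS, a death receptor, held 134 and 133 CPM in IFNg cells and 18.8 and 22.2 CPM in vehicle cells (2.69 ± 0.09). CASP8, the initiator caspase, rose by 1.43 ± 0.07 and CASP10 by 3.42 ± 0.11, and BIRC3, an inhibitor of cell death, held 336 and 317 CPM in IFNg cells and 17.2 and 14.8 CPM in vehicle cells (4.35 ± 0.09). The member that fell was the decoy receptor TNFRSF10D (-1.24 ± 0.19), and the effectors and guards BAX (-0.10, adjusted p = 0.12), BCL2L1 (0.08, adjusted p = 0.079) and XIAP (-0.04, adjusted p = 0.51) were not called. BCL2L1 was called higher without IFNg replicate 2 (0.13).

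In the pyroptosis and necroptosis group 11 of 13 tested genes rose, each by 2-fold or more, and none fell. CASP1, the inflammasome caspase, held 12 and 13.2 CPM in IFNg cells and 0 and 0 CPM in vehicle cells, at least 66.6-fold higher. GSDMD, the pore-forming protein that CASP1 cuts, held 94.1 and 97.4 CPM in IFNg cells and 40.3 and 42 CPM in vehicle cells (1.22 ± 0.08), and GSDMB rose by 3.59 ± 0.17. The DNA sensor AIM2 held 82.5 and 78.5 CPM in IFNg cells and 0.133 and 0 CPM in vehicle cells, a ratio of 1270 (228 to 50300). The nucleic acid sensor ZBP1 rose by 6.69 ± 0.55 and MLKL, the necroptosis effector, by 1.74 ± 0.09.

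Complement genes were also induced, with 12 of 14 tested higher, 1 lower and 1 not called. C1S, a protease of the C1 complex, held 247 and 245 CPM in IFNg cells and 0.398 and 0.242 CPM in vehicle cells (9.53 ± 0.65), and C1R, with 113 and 115 CPM in IFNg cells and 0 and 0.242 CPM in vehicle cells, had a ratio of 897 (248 to 7410). SERPING1, the inhibitor of both, held 322 and 326 CPM in IFNg cells and 0 and 0 CPM in vehicle cells, at least 1700-fold higher. CFB, of the alternative pathway, held 318 and 312 CPM in IFNg cells and 3.32 and 2.06 CPM in vehicle cells (6.88 ± 0.22). The surface protector CD55 rose by 2.24 ± 0.06, while CD59 was not called (0.03, adjusted p = 0.6) and C5 fell (-1.38 ± 0.29).

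Of 42 listed genes of epithelial defence 28 were tested, with 17 higher and 4 lower (median 1.08). PIGR, which carries IgA across the epithelium, held 3.48 and 4.84 CPM in IFNg cells and 0 and 0 CPM in vehicle cells, at least 21.9-fold higher. MUC1, a membrane mucin, held 101 and 112 CPM in IFNg cells and 0.663 and 2.67 CPM in vehicle cells (5.95 ± 0.28). LCN2, an iron-binding acute phase protein, rose by 0.99 ± 0.06 and the NADPH oxidase NOX1 by 0.97 ± 0.13. The members that fell were TFF1, REG4 and RNASE4, each under 3 CPM in every library, and LYZ, which encodes lysozyme (-0.08, adjusted p = 0.038), whose call was lost with DESeq2 and without IFNg replicate 1 (-0.06), IFNg replicate 2 (-0.10) or vehicle replicate 2 (-0.06). In the NF-kB group 16 of 18 genes rose and none fell (median 1.37). Its feedback inhibitor TNFAIP3 held 40 and 36 CPM in IFNg cells and 2.12 and 1.7 CPM in vehicle cells (4.31 ± 0.27), and NFKBIA rose by 1.81 ± 0.08, whereas the subunit gene NFKB1 was not called (-0.08, adjusted p = 0.25).

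A stem cell gene showed one of the deeper falls. LGR5, a marker of intestinal stem cells, held 1.89 and 2.42 CPM in IFNg cells and 34.2 and 33.2 CPM in vehicle cells (-3.96 ± 0.27, adjusted p = 1.3e-26). Among 18 tested stem cell and WNT target genes 5 rose, 5 fell and 8 were not called, each direction near the share over all tested genes (30.8% higher and 28.7% lower). The median was -0.02 against -0.01 over all tested genes, so the fall of LGR5 was not shared by the group. EPHB3 (-2.30 ± 0.40), SP5 (-1.15 ± 0.31), PROM1 (-0.71 ± 0.08) and TCF7 (-0.55 ± 0.07) fell with it. The WNT targets AXIN2 (0.04, adjusted p = 0.6) and MYC (0.04, adjusted p = 0.48) and the stem cell factor SOX9 (-0.01, adjusted p = 0.86) were not called, and ASCL2, a stem cell transcription factor, rose, at 6.82 and 4.7 CPM in IFNg cells and 2.78 and 2.42 CPM in vehicle cells.

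Of 26 tested colonocyte and goblet genes 9 rose, close to the 30.8% of all tested genes, 13 fell, where 28.7% of all tested genes did, and 4 were not called (median -0.42). KLF4, a factor of differentiated epithelium, held 320 and 317 CPM in IFNg cells and 5.17 and 6.54 CPM in vehicle cells (5.75 ± 0.15). CEACAM5, the carcinoembryonic antigen, held 98.2 and 96 CPM in IFNg cells and 3.98 and 4.36 CPM in vehicle cells (4.53 ± 0.18), and the membrane mucin MUC13 held 430 and 436 CPM in IFNg cells and 40.6 and 38.7 CPM in vehicle cells (3.45 ± 0.06). KRT20, a keratin of mature colonocytes, held 500 and 518 CPM in IFNg cells and 257 and 250 CPM in vehicle cells (1.01 ± 0.04). On the other side, LGALS4, an epithelial galectin, held 85.4 and 92.5 CPM in IFNg cells and 207 and 217 CPM in vehicle cells (-1.25 ± 0.06), and PHGR1 fell (-2.71 ± 0.37). The transcription factor HNF4A fell less (-0.42 ± 0.11), and was not called without vehicle replicate 2 (-0.30). The CEACAM genes are close paralogs and their separate values are uncertain.

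Most junction genes changed by less than 2-fold. Of 25 tested genes of tight junctions and adhesion 16 rose and 5 fell, but only 1 in each direction reached 2-fold. The gene that fell past 2-fold was CLDN2, the pore-forming claudin, at 8.85 and 8.55 CPM in IFNg cells and 90.8 and 96.5 CPM in vehicle cells (-3.43 ± 0.14), and the gene that rose past it was CLDN23 (1.51 ± 0.20). CLDN4, a sealing claudin, rose by 0.63 ± 0.04 and CLDN1 fell (-0.73 ± 0.09). Outside the claudins, the desmosomal cadherin DSC2 (0.85), the catenin CTNND1 (0.76) and the tight junction gene OCLN (0.59; not called without IFNg replicate 2, at 0.40) rose. CFTR, the chloride channel, held 5.8 and 3.7 CPM in IFNg cells and 50.5 and 49.3 CPM in vehicle cells (-3.39 ± 0.18). EPCAM rose slightly, to 684 and 678 CPM in IFNg cells, against 507 and 496 CPM in vehicle cells (0.44 ± 0.04). Keratin genes showed 5 of 9 tested higher, led by KRT17, a keratin of stressed epithelium, at 36 and 43 CPM in IFNg cells and 0.928 and 0.969 CPM in vehicle cells (5.36 ± 0.38).

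**Figure D3:**
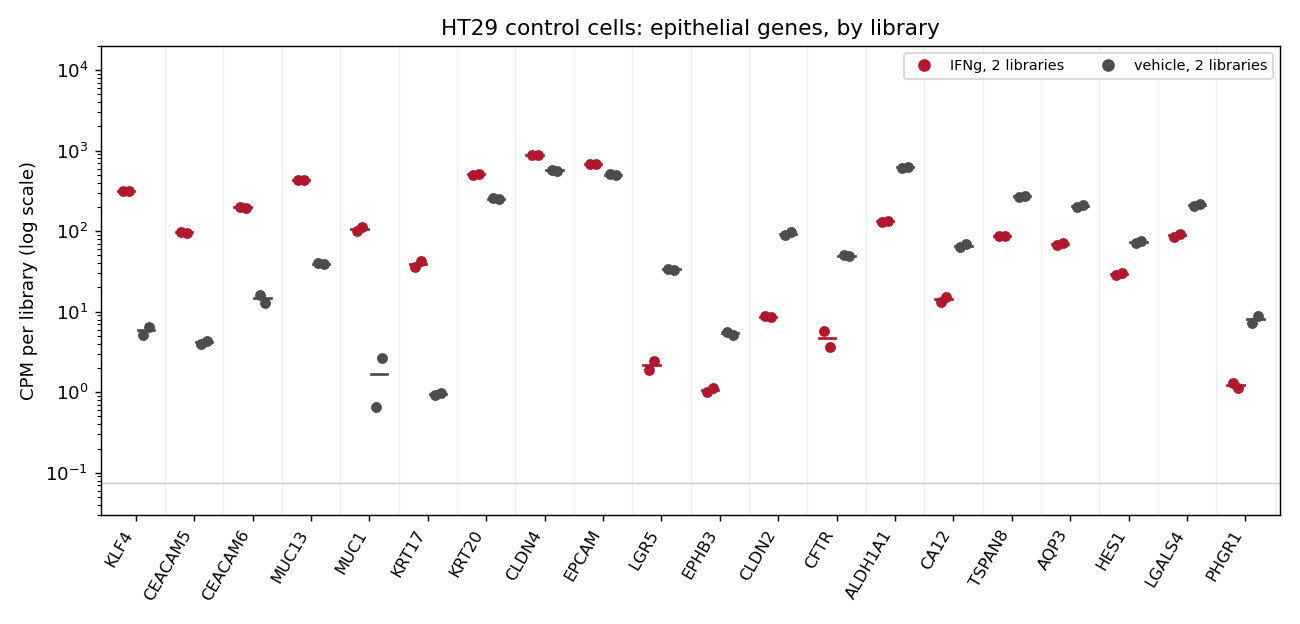
Normalized CPM on a log axis for genes of stem cell identity, differentiation, junctions and transport, with 1 point per IFNg and vehicle library of control HT29 cells and a bar at each mean. LGR5, CLDN2 and CFTR lie lower in both IFNg libraries, CLDN2 at 8.85 and 8.55 CPM against 90.8 and 96.5 CPM with vehicle, while KLF4, CEACAM5 and MUC13 lie higher.

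The deepest falls included further secreted and transport genes. SLC14A1, a urea transporter, held 0 and 0 CPM in IFNg cells and 11 and 13.2 CPM in vehicle cells, at least 56.4-fold lower. FGF9, a growth factor, held 0 and 0.285 CPM in IFNg cells and 14.6 and 14.7 CPM in vehicle cells, a ratio of 0.00983 (0.00118 to 0.0359). The connexin GJB1, with 0.435 and 0 CPM in IFNg cells and 10.6 and 9.69 CPM in vehicle cells, had a ratio of 0.0213 (0.00434 to 0.0633). These genes were thus almost undetected in both IFNg libraries. The annexin ANXA13 fell (-5.41 ± 0.73), as did the neural adhesion gene SLITRK6 (-3.96 ± 0.17) and the hedgehog ligand IHH (-3.64 ± 0.53). Among abundant transcripts the losses were smaller in fold. ALDH1A1, a retinal dehydrogenase, held 132 and 135 CPM in IFNg cells and 611 and 630 CPM in vehicle cells (-2.22 ± 0.05), and the poly(A)-binding protein gene PABPC1 held 786 and 828 CPM in IFNg cells and 1610 and 1600 CPM in vehicle cells (-0.99 ± 0.04).

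Proliferation genes fell modestly. Of 31, 20 fell, where 28.7% of all tested genes did, 4 rose, where 30.8% did, and 7 were not called. The median was -0.42, and 1 in each direction passed 2-fold. TOP2A, the topoisomerase of dividing cells, held 478 and 483 CPM in IFNg cells and 874 and 876 CPM in vehicle cells (-0.86 ± 0.04). MKI67 held 886 and 916 CPM in IFNg cells and 1180 and 1140 CPM in vehicle cells (-0.36), and the mitotic kinesin KIF20A held 38.4 and 35.5 CPM in IFNg cells and 104 and 105 CPM in vehicle cells (-1.50 ± 0.08). In bulk RNA, fewer cells in the cycle and less RNA per cell cannot be told apart. CCND1, the G1 cyclin, went the other way, with 429 and 416 CPM in IFNg cells and 198 and 190 CPM in vehicle cells (1.12 ± 0.05). Of 21 growth arrest genes and p53 targets 12 rose and 7 fell (median 0.38), and the share that fell was near the 28.7% of all tested genes. The cyclin-dependent kinase inhibitor CDKN1A held 158 and 154 CPM in IFNg cells and 12.1 and 13.6 CPM in vehicle cells (3.60 ± 0.11), and PMAIP1, which encodes NOXA, rose by 3.99 ± 0.11. The p53 targets did not share a direction, since BTG2 (-1.84 ± 0.12) and ZMAT3 (-1.54 ± 0.16) fell.

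Stress and metabolic groups differed among themselves. Of 20 genes of the ATF4 and unfolded protein responses 15 rose and 3 fell (median 1.03). HSPA5, the chaperone BiP, held 1400 and 1420 CPM in IFNg cells and 568 and 565 CPM in vehicle cells (1.31 ± 0.04), and ATF3 held 67.1 and 67.1 CPM in IFNg cells and 4.77 and 3.51 CPM in vehicle cells (4.02 ± 0.19). The members that fell were the cystine transporter gene SLC7A11, at 68 and 71.9 CPM in IFNg cells and 141 and 157 CPM in vehicle cells (-1.09 ± 0.07), and the serine synthesis genes PHGDH (-1.94 ± 0.15) and PSAT1 (-0.48). ATF4 itself (-0.03, adjusted p = 0.57) and its target ASNS (0.01, adjusted p = 0.92) were not called. Sterol and fatty acid genes showed 19 of 28 tested higher and 3 lower, with a median of only 0.30. Among them, INSIG1 rose by 1.43 ± 0.04, and the synthase HMGCS1 held 519 and 522 CPM in IFNg cells and 287 and 273 CPM in vehicle cells (0.89 ± 0.04). Nuclear genes of oxidative phosphorylation moved least, with 4 of 26 higher, 7 lower and none past 2-fold (median -0.08). Immediate early genes gave 8 higher and 6 lower of 19 tested (median 0.05), with JUNB at 1.46 ± 0.05 and FOSL1 at 1.47 ± 0.09. Over all tested genes 30.8% were higher and 28.7% lower. The shares of lower genes in the oxidative phosphorylation and immediate early groups were near the latter.

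The same treatment was read in Ptpn2-null HT29 cells, in libraries that share none with the control cells. PTPN2 RNA, which a guide need not lower, held 26.4 and 27.6 CPM with IFNg and 15.4 and 16.7 CPM with vehicle in null cells, below the control cells in both conditions. Of the 1243 genes that were at least 2-fold higher in control cells, 1191 were called higher in null cells, where 33.3% of all tested genes were, and 1100 were at least 2-fold higher there, where 12.1% were. Their median log2 change was 2.07 in null cells and 1.96 in control cells. Of the 739 genes that were at least 2-fold lower in control cells, 643 were called lower in null cells, where 34.5% of all tested genes were. The response itself differed between the genotypes, by the interaction term, in 2401 genes (19.1%), of which 926 (7.38%) had a more positive and 1475 (11.7%) a more negative change in null cells.

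The antiviral group had a smaller response in null cells. Over genes with more than 3 counts in every group, the change was more negative in null cells in 47 of its 53 members and more positive in 0, where 12% of all such genes had a more negative and 7.43% a more positive change. Its median log2 change was 3.16 in null cells and 4.40 in control cells. The genotypes differed at the vehicle level. In vehicle cells 52 of 53 members were higher in both null libraries than in both control libraries, against 32.9% of all tested genes, and the summed level was 5480 and 5270 CPM in null vehicle cells and 3010 and 3160 CPM in control vehicle cells. With IFNg it was 48400 and 48000 CPM in null cells and 46900 and 47000 CPM in control cells, and 23 members were higher and 22 lower in null cells without overlap, where 33.8% and 33.9% of all tested genes were. RSAD2 held 1210 and 1130 CPM with IFNg in null cells and 1240 and 1240 CPM in control cells, and 26.1 and 23 CPM with vehicle in null cells and 2.65 and 2.79 CPM in control cells. The difference of its responses was -3.25 ± 0.23 (null minus control). OAS2 (-2.74 ± 0.10) and TRIM22 (-3.93 ± 0.60) gave the same sign.

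**Figure D4:**
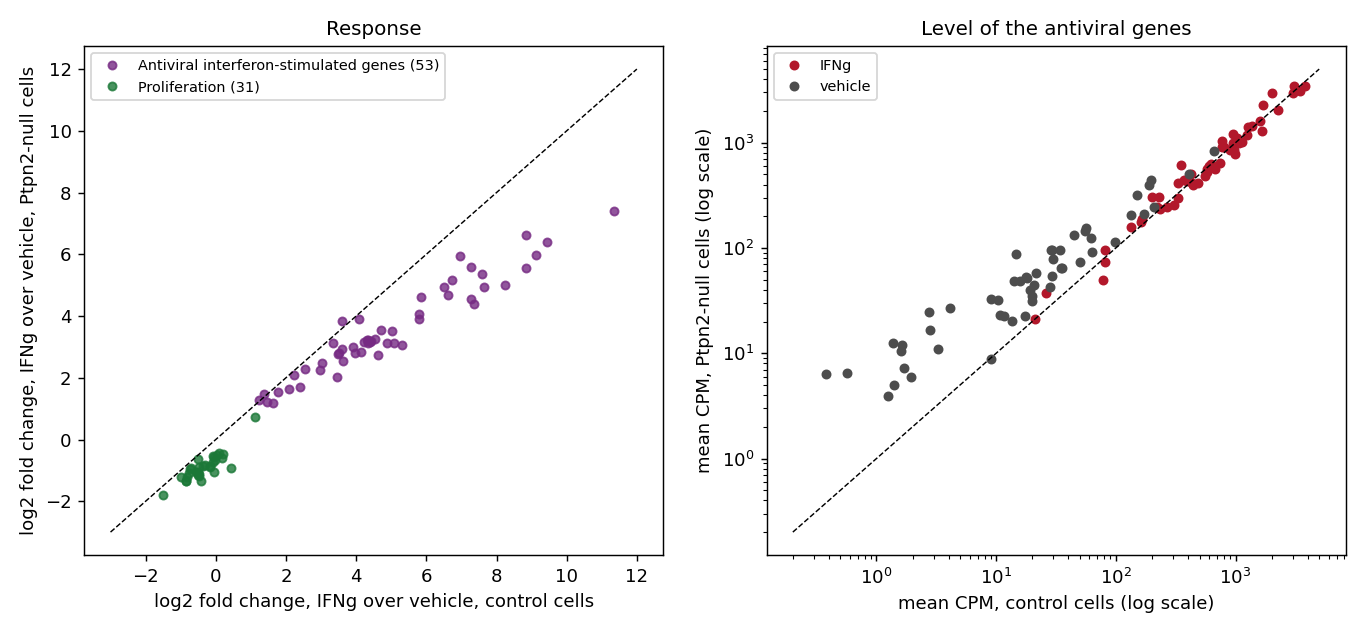
Left, log2 fold change of IFNg over vehicle in Ptpn2-null cells (vertical) against control HT29 cells (horizontal) for 53 antiviral and 31 proliferation genes, and right, the mean CPM of the antiviral genes on log axes, with 1 point per gene and the dashed diagonal as the line of equal values. Most antiviral genes lie below the diagonal on the left, with medians of 3.16 in null cells and 4.40 in control cells, and on the right the vehicle points lie above the diagonal while the IFNg points lie along it.

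Several other interferon groups leaned the same way. Over all genes with more than 3 counts in every group, 12% had a more negative and 7.43% a more positive change in null cells. The change was more negative in null cells for 4 of 5 immunoproteasome genes and 6 of 11 class I genes, with 0 more positive in both groups. It was more negative for 5 of 8 GBP and related genes, with 1 more positive. With IFNg, summed class I levels were 17800 and 17800 CPM in null cells and 16000 and 15900 CPM in control cells. With vehicle they were 1550 and 1540 CPM in null cells and 946 and 944 CPM in control cells. The GBP sum was also higher in null cells in both conditions, and the immunoproteasome sum only with vehicle. Not all groups leaned this way. Of 14 chemokines 5 were more negative and 5 more positive, and of 13 JAK-STAT genes 2 and 3. The share of JAK-STAT genes that were more negative was near that over all such genes. Proliferation genes fell further in null cells, with 28 of 31 more negative and medians of -0.92 in null cells and -0.42 in control cells. MKI67, for example, held 552 and 554 CPM with IFNg and 1010 and 982 CPM with vehicle in null cells, a difference of responses of -0.49 ± 0.05. CEACAM5 held 220 and 227 CPM with IFNg and 3.45 and 2.16 CPM with vehicle in null cells, and its response was larger there (1.75 ± 0.27, adjusted p = 1e-06). SOCS3 held 164 and 174 CPM with IFNg in null cells, against 25.1 and 20.4 CPM in control cells, yet the difference of its responses (2.0 ± 0.70, adjusted p = 0.034) lost its call without control IFNg replicate 2 (1.86), control vehicle replicate 1 (1.94) or 2 (2.07), or null vehicle replicate 2 (1.73). CCL2 and CCL8, at 0 counts in every control library, held 60.5 and 61.2 CPM and 3.02 and 3.24 CPM with IFNg in null cells. The constitutive proteasome genes had almost the same median, 0.87 in null cells and 0.78 in control cells. Of 14, 1 was more positive, near the share over all genes with more than 3 counts in every group.

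The control cells of A549 and MelJuSo were set beside HT29 in a fit of the 14 control libraries of these 3 lines. In it MelJuSo has 3 libraries per group and the other lines 2. The human line A375 of the series was left out, because in earlier results its vehicle libraries went against their labels. Of the 1243 genes at least 2-fold higher in HT29, 1198 were tested there, and 521 of them were called higher in A549 cells, where 21.3% of all tested genes were, and 283 in MelJuSo cells, where 4.53% were. Of the 739 at least 2-fold lower in HT29, 720 were tested there, and 257 were called lower in A549 (21.1% of all tested genes) and 71 in MelJuSo (6.63%). The interaction test called a different response between HT29 and A549 in 5998 genes (41.9%), of which 2842 (19.9%) were more positive and 3156 (22.1%) more negative in HT29. Which direction held more genes depended on the scaling, since RLE scaling gave 3200 more positive and 2671 more negative and DESeq2 gave 2706 and 2060. It also turned without HT29 IFNg replicate 1 (2837 and 2521) or 2 (2788 and 2491) and without A549 vehicle replicate 2 (2744 and 2570). Between HT29 and MelJuSo the response differed in 5552 genes (38.8%), 2743 (19.2%) more positive and 2809 (19.6%) more negative in HT29. Each line is a single cell line, so a difference between lines cannot be told apart from a difference between tissues of origin, and the HT29 libraries are shared by both comparisons.

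The antiviral and signalling groups differed between the lines. Over members with more than 3 counts in all 6 groups, the median log2 change of 37 antiviral genes was 4.19 in HT29, 1.73 in A549 and 0.66 in MelJuSo, beside -0.06, 0.01 and -0.02 over all 11400 such genes. This rule leaves out members near 0 counts in any group. Among them, XAF1 held 71.9 and 79.5 CPM with IFNg and 0 and 0 CPM with vehicle in A549. EPSTI1 was at 0 in every A549 library. With the rule set on the HT29 and A549 groups only, 43 antiviral genes had medians of 4.19 in HT29 and 1.94 in A549. For the 5 immunoproteasome genes the medians were 2.97 in HT29, 3.05 in A549 and 1.77 in MelJuSo. The 12 JAK-STAT genes that passed the rule for all 6 groups had medians of 1.08 in HT29, 0.06 in A549 and 0.05 in MelJuSo. With the rule set on the HT29 and A549 groups only, 12 of 13 JAK-STAT genes responded more in HT29 than in A549. Of all 11965 genes under that rule, 22.6% did. IRF1 had log2 changes of 5.07 ± 0.07 in HT29, 4.42 ± 0.11 in A549 and 4.87 ± 0.15 in MelJuSo. Its difference was called against A549 (0.65 ± 0.14) and not against MelJuSo (0.20 ± 0.18, adjusted p = 0.42).

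HLA-DRA, a class II chain, differed in pattern between the lines. It held 1050 and 1010 CPM with IFNg and 0 and 0 CPM with vehicle in HT29. In A549 it held 0.823 and 0.882 CPM with IFNg and 0 and 0 CPM with vehicle, and in MelJuSo 1790, 1810 and 1850 CPM with IFNg and 851, 870 and 853 CPM with vehicle. So it was switched on in HT29, near the floor in A549 and present without cytokine in MelJuSo. This was not shared by the whole class II group, since CD74 held 57.5 and 62.5 CPM with IFNg and 0.303 and 0 CPM with vehicle in A549. CXCL10 held 5970 and 6080 CPM with IFNg in HT29, against 0.137 and 0 CPM in A549 and 0.29, 0.125 and 0 CPM in MelJuSo. IFNB1 was at 0 counts in all A549 and MelJuSo libraries, and held 20.4 and 20 CPM with IFNg in HT29.

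Some responses of HT29 ran against those of A549 or of MelJuSo. For 28 sterol genes the medians were 0.26 in HT29, -0.47 in A549 and -0.17 in MelJuSo, with 17 higher and 4 lower in HT29 and 2 higher and 20 lower in A549. In this fit 26.6% of all such genes were higher and 32% lower in HT29, and 23.5% were higher and 21.9% lower in A549. HMGCS1 held 526 and 531 CPM with IFNg and 299 and 285 CPM with vehicle in HT29, against 144 and 136 CPM with IFNg and 306 and 305 CPM with vehicle in A549, a difference of 1.98 ± 0.06. PHGDH held 9.1 and 7.97 CPM with IFNg and 34 and 33.3 CPM with vehicle in HT29, against 142 and 134 CPM with IFNg and 42.1 and 39.4 CPM with vehicle in A549 (-3.74 ± 0.16). CDKN1A held 160 and 157 CPM with IFNg and 12.6 and 14.1 CPM with vehicle in HT29, against 182, 191 and 155 CPM with IFNg and 220, 230 and 221 CPM with vehicle in MelJuSo (3.91 ± 0.11). In A549 CDKN1A was also higher with IFNg, at 136 and 121 CPM against 92.8 and 94.7 CPM with vehicle.

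**Figure D5:**
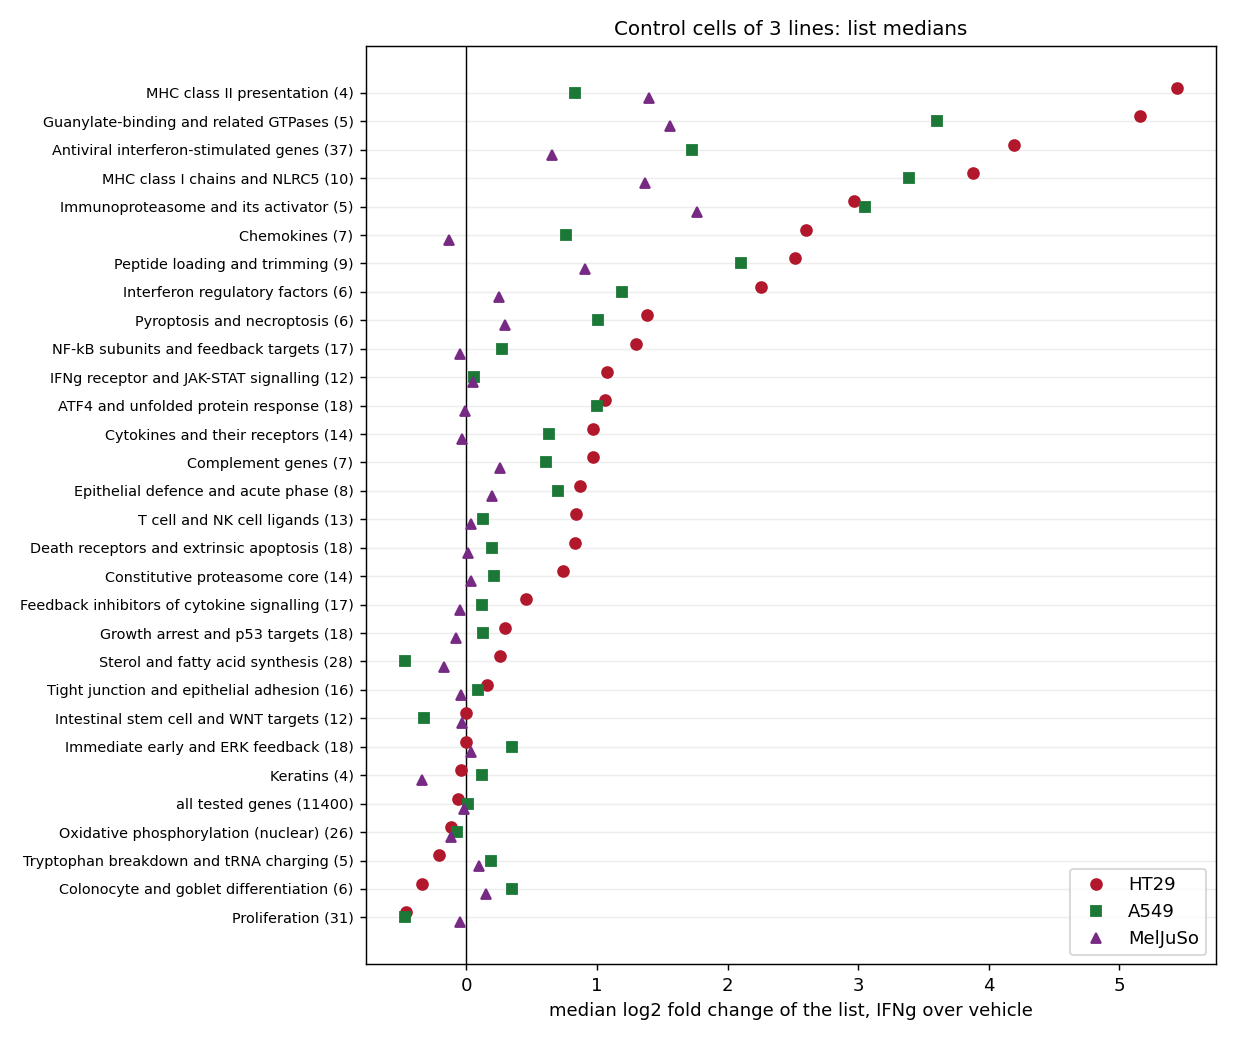
Median log2 fold change of IFNg over vehicle in control HT29, A549 and MelJuSo cells for each gene group, over the members (number in brackets) with more than 3 counts in all 6 groups. The antiviral median is 4.19 in HT29, 1.73 in A549 and 0.66 in MelJuSo, while the sterol median is 0.26 in HT29 and below 0 in the other lines.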

How the data were processed

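The authors deposited raw counts of reads per gene, and these counts were the starting point. Per the submitters' processing notes, the tools were bcl2fastq 2.17.1.14, Trimmomatic 0.33, Bowtie2 2.2.4, HTSeq 0.6.1p1 and DESeq2, and hg19 and mm10 were the genome builds named. The strand setting of the counting is not given in the sources used here, so overlapping and antisense genes cannot be told apart. From these counts, edgeR 4.0.16 in R 4.3.3 was used with TMM scaling, a filter on low counts by group (filterByExpr) and the robust quasi-likelihood test, and p-values were adjusted over every tested gene by Benjamini-Hochberg. The main fit held 8 HT29 libraries in 4 groups, which share 1 estimate of the spread with 4 residual degrees of freedom (common coefficient of variation 0.0266). The lines were compared in a fit of 14 control libraries. Responses were compared by interaction contrasts.

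The members and gene lists were chosen with earlier results of these data known. Named genes were taken, though not exhaustively, from a set of key genes, the 20 genes with the largest change per direction, up to 8 called members of each list with the largest change, members not called, the 10 largest gains and losses in CPM, and 6 genes per direction of each difference. Genes outside that rule were named after their values were seen, among them the few members of a list that fell, PSMB5, PSMB6 and the genes printed for the differences of responses. Differences are printed, and counted per list, only for genes with over 3 counts in every group, a choice made after seeing the data. The steps were tested on simulated data. For IFNg against vehicle, 12301 genes were drawn from HT29 means. Of these, 91 of 100 genes changed by 1 on the log2 scale and 100 of 100 changed by 3 were recovered, with 10 false calls. For null minus control, 83 of 100 changed by 1 and 100 of 100 changed by 3 were recovered, with 4 false calls. For HT29 minus A549 the recoveries were 75 of 100 and 99 of 100, with 8 false calls. Only 100 genes of each size were changed, so scaling under a shift as broad as that in the data was not tested. Alternatives were RLE scaling, other filters, DESeq2 1.42.0, fits of only the compared groups, a replicate block and leaving out each library.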

Additional observations from a re-analysis of the deposited data

Results flagged for a closer look

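The following differences between the IFNg responses of 2 groups were picked out because the interaction term of the edgeR fit, a test of the difference itself, was called. All are log2 differences with no explanation weighed.

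Between Ptpn2-null and control HT29 cells the response differed in 2401 genes. The difference (null minus control) was -0.59 for IRF1, -0.67 for B2M, -2.74 for OAS2, -1.76 for ISG15, -3.25 for RSAD2, -3.93 for TRIM22 and -3.39 for NLRC5. It was -1.57 for CXCL10, -2.43 for GBP1 and -0.49 for MKI67, and positive for SOCS3 (2.0) and CEACAM5 (1.75). CXCL10 reached 11800 and 11900 CPM with IFNg in null cells and 5890 and 5980 CPM in control cells, and with vehicle it held 11.6 and 9.38 CPM in null cells and 1.86 and 1.7 CPM in control cells, so a smaller fold in null cells goes with a higher level in both conditions.

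Between HT29 and A549 the response differed in 5998 genes. The difference (HT29 minus A549) was 0.65 for IRF1, 3.74 for TAP1, 3.02 for OAS3, 6.45 for HLA-DMA, 3.69 for BIRC3, 1.98 for HMGCS1 and 1.77 for CALR, and negative for PHGDH (-3.74) and LGALS3BP (-0.98).

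Between HT29 and MelJuSo the response differed in 5552 genes. The difference (HT29 minus MelJuSo) was 4.84 for TAP1, 1.89 for B2M, 7.20 for CD74, 3.42 for OAS3 and 3.91 for CDKN1A, and negative for BST2 (-4.18).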

How the results depend on the processing

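Among the named genes put through the alternatives, none whose change was called changed sign. Genes given as bounds or ratios and the LAG3 difference were not put through them. The 7461 genes called for IFNg against vehicle in control HT29 cells became 7467 with RLE scaling, 7430 with no filter, 7224 with a stricter filter, 7530 with only the compared groups and 5845 with DESeq2, which shared 5844 of the calls in the same direction. Leaving out single libraries gave 6475 to 6597 calls, with 3465 to 3504 higher and 3010 to 3101 lower, and 1221 to 1251 at least 2-fold higher and 711 to 736 at least 2-fold lower; the lone library left in a group is assumed to vary like the others. Samples were not treated as paired by replicate number in the main fit. Same-numbered libraries deviated together with a correlation of 0.02. Replicates differed little beyond counting noise, so this value cannot exclude pairing. With a replicate block the counts were 7563 for IFNg against vehicle, 2525 for null minus control, 6057 for HT29 minus A549 and 5647 for HT29 minus MelJuSo.

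The null minus control count of 2401 fell to 1249 with DESeq2 (554 higher, 695 lower), and the cause was not tested. It ranged from 1831 to 2316 without single libraries (701 to 1050 higher, 995 to 1445 lower). For HT29 minus A549, DESeq2 called 4766 with 2060 lower, against 3156 lower with edgeR, and single libraries gave 5279 to 5496 (2585 to 2837 higher, 2491 to 2905 lower). For HT29 minus MelJuSo, single libraries gave 4910 to 5434 (2413 to 2694 higher, 2479 to 2740 lower). Between lines, the direction with more genes turned for HT29 minus A549 with RLE scaling (3200 higher, 2671 lower) and DESeq2 (2706 higher), and for HT29 minus MelJuSo with RLE scaling (2937 higher, 2566 lower), DESeq2 (2511 higher, 2001 lower), without HT29 vehicle replicate 1 (2497 higher, 2479 lower) and without MelJuSo IFNg replicate 2 (2674 higher, 2660 lower). Counting only genes with over 3 counts in every group, chosen after seeing the data, gave 2382, 5789 and 5339. Calls lost in at least 1 alternative included small changes, such as those of STAT5B, CD276, LYZ, SREBF2 and SCD, and larger ones, such as those of MUC12 (1.71, adjusted p = 0.096) and CDH3 (-1.36, adjusted p = 0.12) with DESeq2. At this depth a gene with 0 counts in a group may hold up to 0.216 CPM with IFNg and 0.19 CPM with vehicle, and floors and intervals cover counting error only.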

Other observations

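Further transcripts showed large gains or losses. Among antiviral genes, PARP14, an ADP-ribosyltransferase, held 3790 and 3870 CPM in IFNg cells and 180 and 195 CPM in vehicle cells (4.35 ± 0.04), and SAMD9, an antiviral factor, held 3010 and 3020 CPM in IFNg cells and 144 and 158 CPM in vehicle cells (4.32 ± 0.04). RASGRP3, an activator of RAS, held 19.3 and 22.8 CPM in IFNg cells and 0 and 0 CPM in vehicle cells, at least 111-fold higher. Among abundant genes that fell, PRKDC, the DNA repair kinase, held 718 and 735 CPM in IFNg cells and 1280 and 1150 CPM in vehicle cells (-0.74 ± 0.04), and the tubulin gene TUBB held 1120 and 1140 CPM in IFNg cells and 1620 and 1590 CPM in vehicle cells (-0.50 ± 0.03). LOXL1, an elastin cross-linking enzyme, held 1.74 and 2.85 CPM in IFNg cells and 26.7 and 24 CPM in vehicle cells (-3.45 ± 0.27).

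The lymphocyte checkpoint gene LAG3 was not called in control HT29 cells, at 0.725 and 0.427 CPM with IFNg and 0.398 and 0.606 CPM with vehicle (0.18, adjusted p = 0.85 by edgeR). In Ptpn2-null cells it held 8.47 and 12.2 CPM with IFNg and 0.105 and 0.361 CPM with vehicle, and the response there was larger by 5.22 on the log2 scale. In these null vehicle libraries 3 counts equal 0.314 and 0.361 CPM, so LAG3 lay at or below that level. The size of its difference is therefore uncertain, and no error is given for it.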
